A study of Homo sapiens with 60 samples.

Results

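Tight junctions and desmosomes hold epithelial cells together, and the genes described here are those that encode their core proteins. They were chosen by gene symbol. The rule took every numbered claudin (CLDN), desmocollin (DSC), desmoglein (DSG), plakophilin (PKP) and zonula occludens scaffold (TJP), plus DSP, JUP, OCLN, F11R, CGN and MARVELD2. Of the 19712 genes in the deposited tables, 44 met this rule: 24 claudins, 3 other tight junction membrane proteins, 4 tight junction plaque proteins, 7 desmosomal cadherins and 6 desmosomal plaque proteins. In a tight junction, claudins of neighbouring cells join into strands that seal the space between the cells or let chosen ions through, and a plaque of TJP scaffolds and cingulin ties the strands to actin. In a desmosome, desmogleins and desmocollins bind across the gap, and plakoglobin, plakophilins and desmoplakin connect them to keratin filaments. Carcinoma cells that move towards a mesenchymal state commonly lose both structures.

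RNA was sequenced from 4 EGFR-mutant lung adenocarcinoma cell lines, PC9, HCC827, H1975 (NCI-H1975) and HCC2935, with 5 groups per line and 3 biological replicates per group, which gave 60 libraries. Osimertinib, an inhibitor of mutant EGFR, was used at 500 nM throughout. Control cells (DMSO) and acutely treated cells had first been kept without drug for 21 days and then received vehicle or osimertinib for 24 h, whereas drug-tolerant persister cells (DTP) were the cells alive after 21 days of osimertinib. The washout groups were DTPs put back into drug-free medium, for 24 h in the short washout. The long washout was set to last until growth resumed, and took 7 days in PC9, 4 days in HCC827, 3 days in H1975 and 10 days in HCC2935. RNA of proliferation genes in the long washouts is given with the results below. The groups ask what the drug did within a day, what was found in the surviving cells, and how far that returned once the drug was removed. These are monolayer cultures of 1 line each, and the time of the long washout differs between lines, so the long washouts were not compared between lines.

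Total estimated counts per library ranged from 34679067 to 47111694 in PC9 and from 17715463 to 25065864 in HCC827. They ranged from 38712807 to 49134084 in H1975 and from 18642630 to 25580786 in HCC2935. Within a line, values are given as CPM, counts scaled to the library's size after trimmed-mean normalization. Levels of different genes, or of 1 gene in different lines, are compared as TPM, which also correct for length. Sums over several genes are in TPM too, within a line as well, and lack the trimmed-mean scaling. Each within-line comparison is a contrast of 2 groups in edgeR's quasi-likelihood test over all genes that passed the count filter. A gene was called, or is said to have risen or fallen, at a Benjamini-Hochberg adjusted p under 0.05. A value written as a log2 fold change ± a number gives the standard error of that change from 3 libraries per group, and a level written with ± gives the SD over 3 libraries. Acute, DTP and long washout comparisons against DMSO in a line share the same 3 DMSO libraries, and both washout comparisons against DTP share the 3 DTP libraries. Their values are therefore set side by side and were not related to each other. Strand use of the libraries is not stated. In GENCODE 29 a gene on the same strand overlaps 10 of the 44 members and one on the opposite strand overlaps 18. Reads from such a neighbour could be counted for a member.

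Some libraries stood apart from their group. By the root mean square distance in log2 CPM over all genes tested, PC9 long washout replicate 3 lay 0.747 from its own group and 0.552 from the short washout. HCC827 DTP replicate 1 lay 0.775 from the other 2 DTP libraries, which were 0.635 apart, and HCC827 short washout replicate 1 lay 0.765 from its group, whose other 2 libraries were 0.60 apart. Counts were repeated without these 3 libraries, a choice made after the data were seen and not the only one possible. Among those kept, HCC827 DMSO replicate 2 lay 0.751 from its group against 0.621 between the others, HCC827 long washout replicate 3 0.705 against 0.59 and H1975 DMSO replicate 2 0.671 against 0.554. H1975 acute replicate 1 lay 0.658 against 0.577 and HCC2935 DMSO replicate 3 0.66 against 0.585. Besides PC9 long washout replicate 3, the libraries nearer to another group than to their own were all 3 DTP libraries of HCC827 and of H1975, all 3 short washout libraries and long washout replicate 3 of HCC827, and long washout replicate 1 of HCC2935. In each case the nearest group was a DTP or washout group.

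The cells carried the RNA of an epithelium. All 6 epithelial markers (EPCAM, KRT7, KRT8, KRT18, KRT19 and CDH1) were at 1 TPM or more in the DMSO cells of every line. The most abundant was KRT8 in PC9, at 2742 ± 98.4 TPM, and HCC2935, at 3122 ± 19.4 TPM, and KRT7 in HCC827, at 2652 ± 614 TPM, and H1975, at 1501 ± 211 TPM. Markers of the adenocarcinoma lineage were uneven: NAPSA was at 228 ± 22.4 TPM in HCC2935 and 50.7 ± 24.3 TPM in HCC827, but at 1.44 ± 0.166 TPM in H1975 and 0.343 ± 0.108 TPM in PC9, and NKX2-1 was not in the tables. Of 5 squamous or basal markers, KRT6A reached 118 ± 12.2 TPM in HCC2935 and KRT5 54.8 ± 10.3 TPM in PC9 under DMSO, while the sum of the list stayed at 3.59, 1.67 and 5.8 TPM in HCC827 and 6.83, 1.47 and 4.6 TPM in H1975. Endothelial markers were low under DMSO, with the highest value for CDH5 in HCC2935 at 13.5 ± 2.43 TPM. The 5 haematopoietic markers summed to 7.28, 4.76 and 5.28 TPM in the DMSO libraries of H1975, the line where they were highest. Markers of both lists were also called with osimertinib, in both directions. Among endothelial markers in PC9 DTPs, VWF was higher, by 3.83 ± 0.51, and PECAM1 lower, by -2.39 ± 0.30. KDR was higher in HCC827 DTPs, by 3.87 ± 0.91, and CDH5 in H1975 acute cells, by 2.69 ± 0.36. Among haematopoietic markers in H1975 DTPs, CD14 was higher, by 1.498 ± 0.378, and PTPRC lower, by -1.51 ± 0.34. The part of these changes in the results was not tested. The drug's target pathway was checked first: of 6 genes induced by ERK signalling, 6, 5, 5 and 6 fell with acute osimertinib in PC9, HCC827, H1975 and HCC2935, and all 4 proliferation genes fell in each line.

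Under DMSO, CLDN4 and CLDN7 were among the 3 highest members in each line, as the plot of DMSO levels shows. In PC9 the order by mean level was CLDN7 at 247 ± 7.66 TPM, CLDN4 at 166 ± 8.85 TPM, JUP at 98.1 ± 11.9 TPM, F11R at 74.5 ± 5.13 TPM and PKP3 at 66.6 ± 3.2 TPM. The levels of F11R and PKP3 did not differ beyond their spread. HCC827 had CLDN7 at 268 ± 36.8 TPM and CLDN4 at 251 ± 35.8 TPM, a pair whose levels did not differ beyond their spread, then JUP at 186 ± 18.8 TPM and DSG2 at 150.3 ± 4.32 TPM. H1975 had CLDN4 at 182 ± 72.6 TPM, CLDN7 at 105 ± 46.4 TPM and DSG2 at 95.3 ± 18.1 TPM, and none of the first 9 genes in its order was separated from the next beyond the spread of the replicates. The highest single level of any member was CLDN4 in HCC2935, at 753 ± 23.2 TPM, followed there by JUP at 440.1 ± 3.79 TPM and CLDN7 at 291 ± 4.7 TPM. Summed over the 44 members, the DMSO libraries held 987, 1041 and 1034 TPM in PC9, 1699, 1568 and 1501 in HCC827, 1172, 723 and 1027 in H1975 and 2893, 2857 and 2887 in HCC2935. HCC2935 was above the other lines in every library, and within H1975 replicate 2 was the low one.

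**Figure D1:**
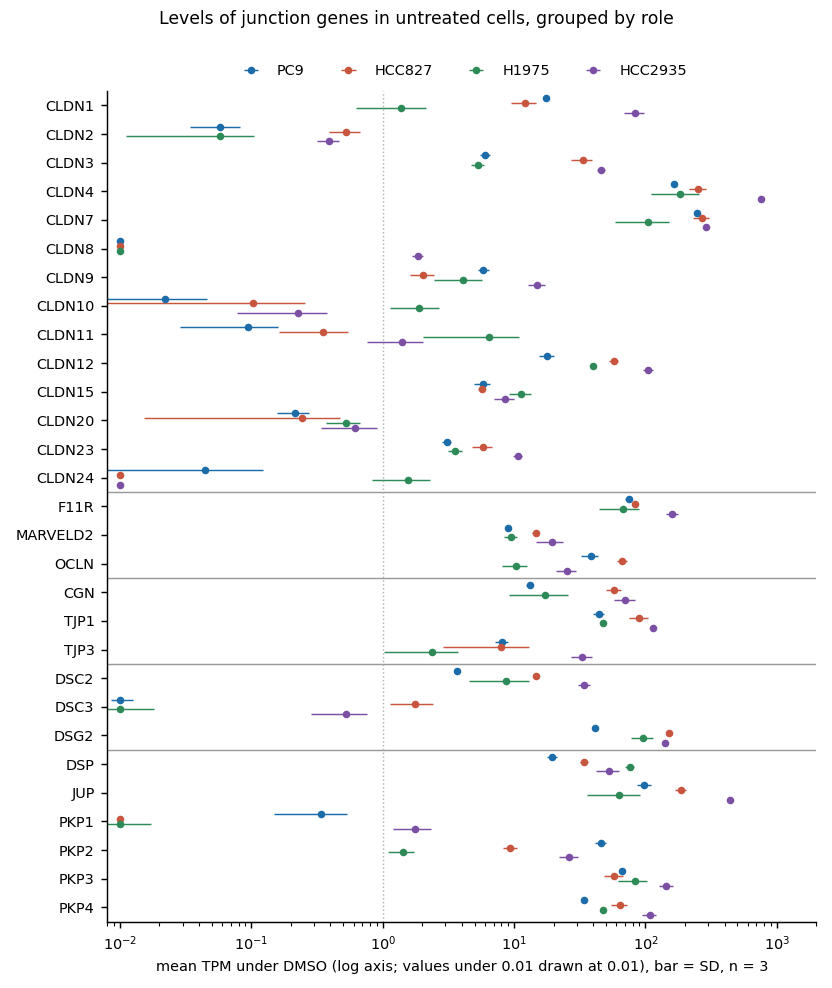
Mean level under DMSO, in TPM on a log axis, of 29 members that reached 1 TPM in at least 1 of the 20 groups, with points for the 4 lines and bars for the SD over 3 libraries. CLDN4 in HCC2935 is the highest point, at 753 TPM.

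Of the 44 members, 21 were at 1 TPM or more in all 20 groups, among them CLDN1, CLDN3, CLDN4, CLDN7, CLDN12, CLDN15, CLDN23, OCLN, MARVELD2, F11R, TJP1, TJP3, CGN, DSC2, DSG2, DSP, JUP, PKP2, PKP3 and PKP4. CLDN9 reached 1 TPM in 17 groups, CLDN11 in 10, DSC3 in 8, CLDN8 in 5, CLDN10 in 4, CLDN2 and PKP1 in 3, CLDN24 in 2 and CLDN20 in 1. CLDN8, a barrier claudin of kidney tubules, belonged to HCC2935, where its group means were 1.33 TPM or more, against 0.0403 TPM or less in every group of the other lines. CLDN10, which forms ion pores, was at 1.9 ± 0.762 TPM under DMSO in H1975, and CLDN24 was at 1.56 ± 0.72 TPM there; neither reached 1 TPM under DMSO in another line. CLDN20, whose role is little known, peaked at 1.02 ± 0.224 TPM in HCC2935 with acute osimertinib. The other 14 members were under 1 TPM in every group: CLDN5, CLDN6, CLDN14, CLDN16, CLDN17, CLDN18, CLDN19, CLDN22, CLDN25, CLDN34, DSC1, DSG1, DSG3 and DSG4. The highest group mean among them was 0.893 TPM, for CLDN16 in PC9 DTPs. CLDN22 and CLDN25 had 0 counts in all 60 libraries, which cannot tell absence from a level too low to be counted. CLDN22 and CLDN24 are close relatives, and how reads that fit both were shared is not stated. The count filter was passed by 30 members in PC9, 29 in HCC827, 31 in H1975 and 30 in HCC2935, by 26 in all 4 lines and by 37 in at least 1.

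Levels under DMSO were then compared between lines in 1 fit of all 60 libraries, in which 36 members could be tested. The level of 31 of the 36 differed between the 4 lines, beside 89.3% of all 16583 genes tested. HCC2935 had the higher level for 24 of 36 members against PC9, 24 against H1975 and 17 against HCC827, beside 33.5%, 31.0% and 32.0% of all genes. It had the lower level for 2, 6 and 4, beside 33.5%, 34.3% and 32.3%. PKP2, the plakophilin of simple epithelia and heart muscle, was at 45.8 ± 4.21 TPM in PC9, 26.3 ± 4.36 TPM in HCC2935, 9.31 ± 1.15 TPM in HCC827 and 1.42 ± 0.32 TPM in H1975, with adjusted p = 3.1e-23 over the 4 lines. DSC3, a desmocollin of stratified epithelia, was at 1.77 ± 0.639 TPM in HCC827 and 0.525 ± 0.24 TPM in HCC2935, and at 0.00153 and 0.00797 TPM in PC9 and H1975 (adjusted p = 1.3e-17). CLDN1, a claudin that closes the barrier, ranged from 83.3 ± 14.8 TPM in HCC2935 down to 1.38 ± 0.749 TPM in H1975 (adjusted p = 3.3e-16).

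Counts of members called in the main test of each line are given next to the share of all genes called. Counts from other settings, other tools or an unadjusted p mostly lack that share. Where it is lacking, they are no result about the members. In PC9, acute osimertinib raised the RNA of 18 of 30 members tested and lowered that of 2, beside 34.5% and 31.7% of all 14866 genes tested. The median log2 fold change was 0.73 for the members and 0.07 for all genes. PC9 DTPs had 23 of 30 members higher and 2 lower than DMSO, beside 35.7% and 33.5% of all genes, with medians of 0.90 and 0.06. The summed level of the members went from 987, 1041 and 1034 TPM under DMSO to 2148, 2023 and 2196 with acute drug and 2126, 2158 and 2228 in DTPs, with no overlap between control and treated libraries. Scaling by library size alone moved the median of all genes in PC9 by 0.14 in DTPs and 0.12 in the long washout, each against DMSO. The members called became 25 higher and 2 lower in DTPs, and 19 in the long washout, all of them higher.

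HCC827 began in the same direction and ended in the other. With acute osimertinib 9 of 29 members were called, all higher, beside 18.7% of all 14665 genes higher and 20.2% lower (medians 0.35 and 0.02). At an unadjusted p under 0.05, 13 members passed in either direction, a count without the share of all genes at that p beside it. In DTPs 3 of 29 were higher and 9 lower than DMSO, beside 23.0% and 20.4% of all genes, with medians of -0.22 and 0.03. Summed levels were 1699, 1568 and 1501 TPM under DMSO, 2229, 2388 and 2528 with acute drug and 1573, 949 and 881 in DTPs, where replicate 1 was the high one and reached the DMSO range. Without the 3 libraries that stood apart, 4 members were higher and 16 lower in DTPs, and without DTP replicate 1 alone 19 were called in all.

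In H1975 more members rose than fell with acute drug, and fewer were higher than lower in DTPs. Acute osimertinib raised 9 of 31 members and lowered 3, beside 27.8% and 23.8% of all 15379 genes (medians 0.29 and 0.10). DTPs had 4 of 31 higher and 13 lower, beside 26.0% and 25.7% of all genes (medians -0.44 and 0.02). The summed level was 1172, 723 and 1027 TPM under DMSO, 849.9, 1328 and 1444 with acute drug and 682, 662 and 621 in DTPs. Low sums under DMSO (replicate 2) and with acute drug (replicate 1) went with high sums of 6 mesenchymal markers, which were 1279, 2109.5 and 1238 TPM under DMSO and 2402, 1743 and 1618 with acute drug, VIM being the most abundant. The part of this in the results was not tested. Without DMSO replicate 2, 20 members were called in DTPs against DMSO, and without acute replicate 1, 15 were called in the acute comparison.

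HCC2935 was split. Acute osimertinib raised 9 of 30 members and lowered 9, beside 24.9% and 22.2% of all 14946 genes (medians 0.09 and 0.07). DTPs of this line had 11 of 30 higher and 10 lower, beside 27.0% and 25.8% (medians 0.14 and 0.04). Summed over all members it held 2893, 2857 and 2887 TPM under DMSO, 2815, 2665 and 2978 with acute drug and 3082, 2690.4 and 2817 in DTPs, which overlap. Sums of single roles are given as well. From DMSO to DTPs the claudins went from 1322, 1316 and 1314 to 1215, 867 and 982 TPM, the other membrane proteins from 215, 184 and 215 to 355, 421 and 359 and the desmosomal plaque from 777, 769 and 771 to 869, 804 and 909. The tight junction plaque, at 407, 416 and 405 and 470.0, 439.5 and 408, and the desmosomal cadherins, at 172, 172 and 182 and 173, 159.6 and 159, overlapped. The sums were not tested, and TPM lack the trimmed-mean scaling of the CPM. In this line CDH1 went from a mean of 541 to 573 TPM from DMSO to DTPs, but from 1467 to 1403 CPM. Which roles overlapped, and the small rise of the desmosomal plaque, may therefore depend on the unit. Shares of members called that lie near those of all genes, as for the rises of H1975 with acute drug and in HCC2935, are no result about the members. The plot of shares called sets both side by side.

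**Figure D2:**
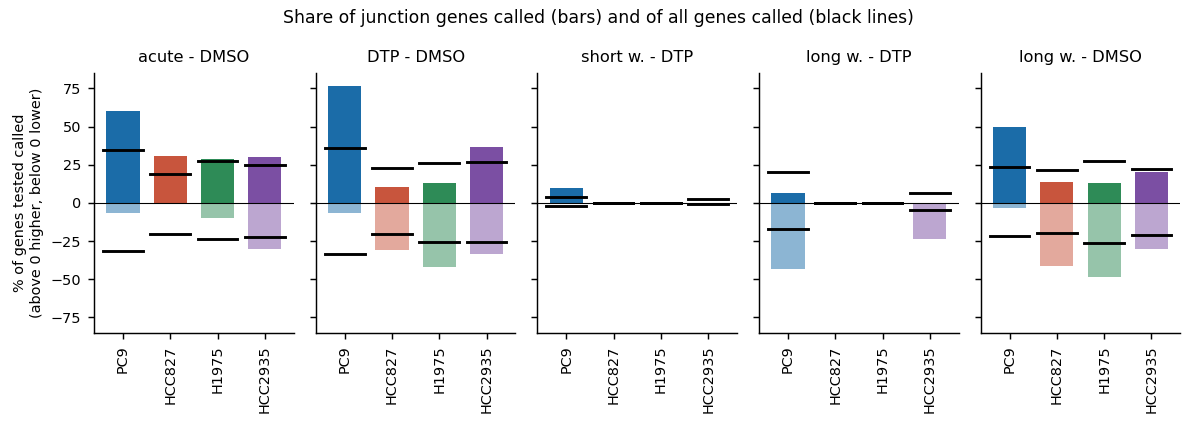
Percent of the members tested (bars) and of all genes tested (black lines) that were called higher or lower in each line and comparison, from 0 on a linear axis. PC9 stands out for rises with acute drug and in DTPs, at 18 and 23 of 30 members.

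The response itself was compared between lines by testing the interaction in the fit of 60 libraries. The acute response differed between lines for 19 of 36 members, beside 41.4% of all genes, and the DTP response for 24, beside 63.9%. Each line was also set against the mean of the other 3, over all 16583 genes. In DTPs the response of PC9 was higher for 18 of 36 members (19.7% of all genes) and lower for 2 (21.4%), and that of HCC827 higher for 1 (14.8%) and lower for 12 (13.6%). That of H1975 was higher for 3 of 36 members (13.9% of all genes) and lower for 12 (15.2%), and that of HCC2935 higher for 7 (15.8%) and lower for 4 (16.0%). With acute drug the response of PC9 was higher for 10 of 36 members (14.0% of all genes) and lower for 1 (14.0%), and that of HCC827 higher for 3 (7.66%) and lower for 4 (6.79%). That of H1975 was higher for 2 of 36 members (5.78% of all genes) and lower for 2 (4.43%), and that of HCC2935 higher for 3 (8.03%) and lower for 14 (10.6%). CLDN3 and DSP rose with acute drug in all 4 lines. Of 30 members tested in at least 2 lines, 6 were called in opposite directions in different lines at 1 CPM or more with acute drug, beside 6.82% of 15419 genes, and 15 in DTPs, beside 16.2%. An interaction p given below for such a member comes from the same libraries as the calls that picked it and adds little to them.

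**Figure D3:**
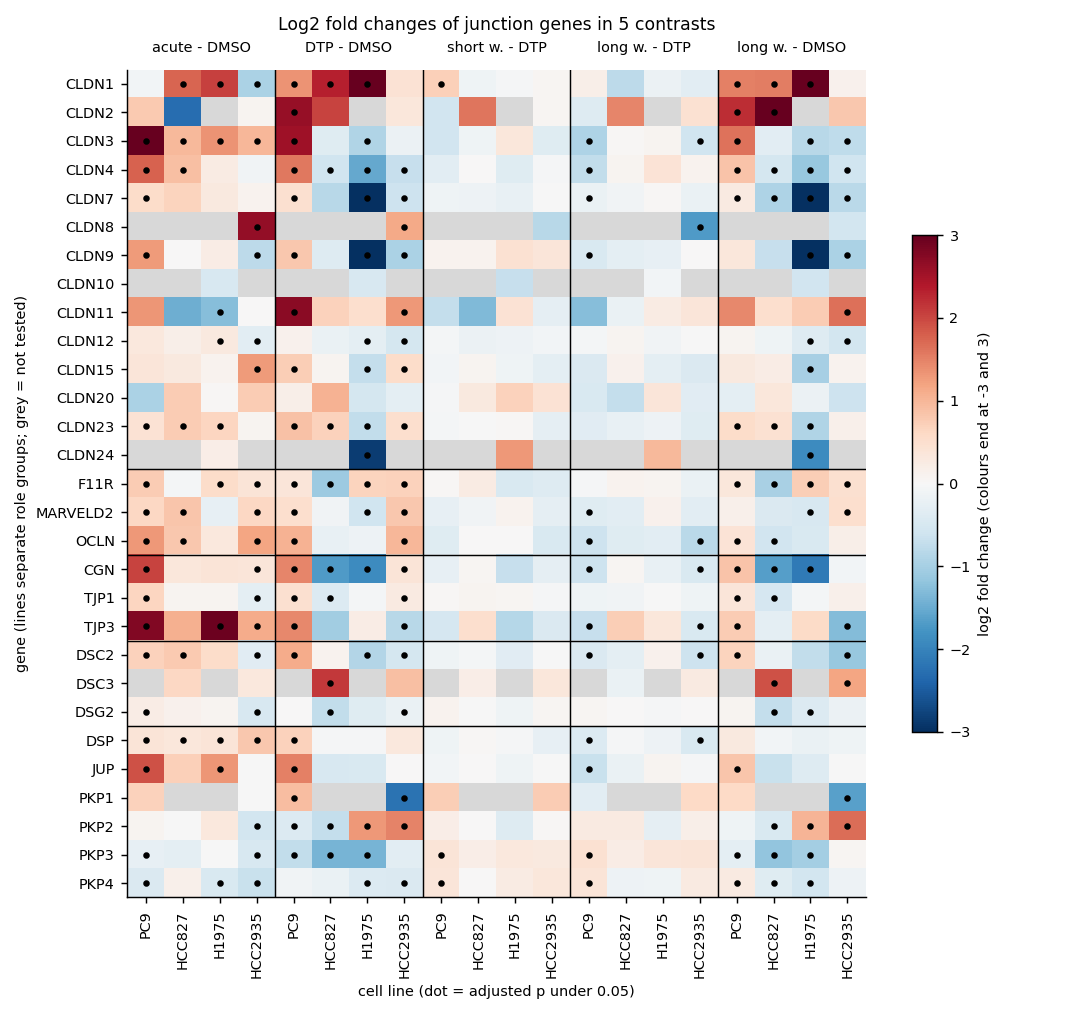
Heat map of log2 fold changes of 29 members at 1 TPM or more in at least 1 group, in 5 comparisons and 4 lines; red is higher and blue lower in the first-named group, and a dot marks adjusted p under 0.05. The DTP column is mostly red in PC9 (CLDN3 at 2.55) and holds the deepest blue in H1975 (CLDN7 at -4.43).

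Among the claudins, CLDN3, CLDN4 and CLDN7 are taken first. Stretches before the starts of these 3 genes are shown from the RefSeq promoter table, build GRCh38.p14, with motif letters in capitals. CLDN3 is shown because its promoter held none of the 3 motifs searched although the gene rose acutely in all lines, and CLDN4 and CLDN7 because theirs held 1 of them. CLDN3 is the 250 bases before its start at chr7:73770271-73770520 on the minus strand, where no exon is annotated. CLDN4 is chr7:73830824-73830853 on the plus strand, in a 5′ untranslated exon of CLDN4 itself by GENCODE 29. CLDN7 is chr17:7262479-7262502 on the minus strand before the second of its starts, in a 5′ untranslated exon of CLDN7.
CLDN3: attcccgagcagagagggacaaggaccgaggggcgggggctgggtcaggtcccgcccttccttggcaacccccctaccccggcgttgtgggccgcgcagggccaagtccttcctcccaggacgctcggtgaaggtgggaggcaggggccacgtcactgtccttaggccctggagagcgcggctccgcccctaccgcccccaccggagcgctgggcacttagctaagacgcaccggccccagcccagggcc
CLDN4: agactggatagTGACTCAgggacccggggc
CLDN7: tactCAGGTGcgcccCACCTGtcc

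The capitals in CLDN4 are TGACTCA, the core site of AP-1 factors, and those in CLDN7 are E-boxes of the kind bound by ZEB and SNAI repressors. Searched on both strands in the 250 bases before each start, CAGGTG or CACCTG was found in 17.5% of 35116 promoters and in 13 of 50 belonging to members. TGACTCA or TGAGTCA was found in 4.2% and in 2 of the 50 (CLDN4 and CLDN15). AACNGGTT, the site of grainyhead-like factors, was searched in the same bases but only along the strand of the gene. It was found in 0.789% and in 1 of the 50 (CGN). The 50 promoters belong to the 34 of 44 members that the table holds, some with several starts. A match describes letters and is not evidence of binding.

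CLDN3, a barrier claudin and receptor for a clostridial toxin, was at 5.35, 6.13 and 5.39 CPM under DMSO in PC9, at 68.3, 57.7 and 58.7 with acute osimertinib and at 31, 35.5 and 32.5 in DTPs. H1975 libraries held 5.13, 3.95 and 4.91 CPM of it under DMSO, 5.72, 16.5 and 13.5 with acute drug and 2.24, 2.51 and 2.68 in DTPs. Acute libraries were all above DMSO in both lines, and DTP libraries were all above DMSO in PC9 and all below it in H1975. Acute log2 fold changes of CLDN3 were 3.45 ± 0.21 in PC9, 0.96 ± 0.14 in HCC827, 1.35 ± 0.30 in H1975 and 1.00 ± 0.12 in HCC2935, with adjusted p of 2.8e-08, 1.2e-04, 0.0016 and 5.9e-06 in that order. In DTPs its changes were 2.55 ± 0.21 in PC9 and -0.91 ± 0.30 in H1975, with adjusted p of 2.8e-07 and 0.02 in that order, and the interaction over lines had adjusted p = 1.0e-12. CLDN3 in DTPs of HCC827, at 26, 21.8 and 21.7 CPM against 32.7, 23.1 and 33.6 under DMSO, and of HCC2935 did not pass. The HCC827 change was -0.36 ± 0.14 and, without the libraries that stood apart, -0.48 (adjusted p = 0.023). The call for CLDN3 in H1975 DTPs was lost without DMSO replicate 1 or DTP replicate 1. The CLDN3 change was then -0.85 or -0.85, with adjusted p = 0.056 or 0.066.

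CLDN4, which closes the barrier to sodium, was at 237, 252 and 231 CPM under DMSO and 675, 706 and 782 in DTPs of PC9. It was at 328, 132 and 289 under DMSO and 71.9, 64.9 and 120.1 in DTPs of H1975. The HCC2935 libraries held 904, 911 and 819 under DMSO and 666, 435 and 528 in DTPs, and the HCC827 libraries 399.7, 313 and 327 and 315, 177 and 196. DTPs were above DMSO in every PC9 library and below it in every H1975 and HCC2935 library, whereas in HCC827 DTP replicate 1 overlapped the DMSO range. The log2 fold changes of CLDN4 in DTPs were 1.59 ± 0.13 in PC9, -0.60 ± 0.18 in HCC827, -1.54 ± 0.35 in H1975 and -0.69 ± 0.13 in HCC2935, with adjusted p of 3.6e-07, 0.016, 0.0021 and 2.6e-04 in that order. Without the libraries that stood apart, HCC827 had -0.92 (adjusted p = 6.0e-05). The call for CLDN4 in HCC827 DTPs was lost without DMSO replicate 1, DTP replicate 2 or DTP replicate 3. The CLDN4 change was then -0.48, -0.44 or -0.52, with adjusted p = 0.073, 0.076 or 0.062.

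CLDN7, a claudin that also lies along the side membrane and binds EPCAM, showed the largest fall of any member in DTPs. In H1975 it was at 125, 45 and 95.2 CPM under DMSO and at 4.69, 3.54 and 4.09 in DTPs, and the short and long washout libraries were at 2.74, 4.11 and 3.74 and 4.49, 3.46 and 4.57. Even the lowest DMSO library was far above every DTP and washout library. PC9 held 211, 223 and 223 CPM under DMSO and 314, 306 and 290.2 in DTPs, and HCC2935 held 214, 212 and 197 and 159, 116 and 128, again without overlap but in opposite directions. The log2 fold changes in DTPs were 0.47 ± 0.07 in PC9, -4.43 ± 0.37 in H1975 and -0.63 ± 0.10 in HCC2935, with adjusted p of 3.1e-05, 7.1e-07 and 1.1e-04 in that order, and the interaction had adjusted p = 2.3e-12. In HCC827 CLDN7 was at 259, 209.7 and 209 CPM under DMSO and 228, 85.3 and 69.3 in DTPs; with replicate 1 inside the DMSO range it did not pass (-0.83 ± 0.36, adjusted p = 0.077). It was -1.58 (adjusted p = 1.5e-05) without the libraries that stood apart.

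CLDN1, which seals the skin barrier, went the other way in H1975. It was at 2.84, 5.61 and 2.19 CPM under DMSO, 23.3, 13.3 and 7.1 with acute drug and 64.3, 67.2 and 67.7 in DTPs of that line. HCC827 libraries held 32.1, 38.3 and 25.6 under DMSO, 97.5, 102 and 124 with acute drug and 247, 145 and 88.3 in DTPs. In both lines each treated library lay above each DMSO library. The log2 fold changes in DTPs were 2.32 ± 0.47 in HCC827 and 4.23 ± 0.38 in H1975, with adjusted p of 0.0011 and 1.4e-06 in that order, and with acute drug 1.75 ± 0.46 in HCC827 and 2.04 ± 0.36 in H1975, with adjusted p of 0.0075 and 3.1e-04 in that order. In HCC2935 CLDN1 fell with acute drug, from 173, 166 and 216 to 86.9, 98.2 and 100.4 CPM, a change of -0.96 ± 0.19 in HCC2935, with adjusted p = 7.3e-04 (interaction adjusted p = 2.9e-06). Without the libraries that stood apart, its DTP change in HCC827 was 1.83 (adjusted p = 5.3e-04).

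CLDN9, a claudin known from the inner ear, was at 7.74, 3.26 and 7.84 CPM under DMSO and 0.385, 0.445 and 0.867 in DTPs of H1975, with every DTP library under every DMSO one. PC9 held 9.78, 10.1 and 8.47 and 15.3, 17 and 17.3, and HCC2935 21.1, 21.7 and 15.6 and 11, 8.49 and 10.6, so that DTPs were above DMSO in the first line and below it in the second. CLDN9 had log2 fold changes in DTPs of 0.80 ± 0.14 in PC9, -3.48 ± 0.44 in H1975 and -0.96 ± 0.17 in HCC2935, with adjusted p of 1.1e-04, 1.8e-05 and 2.2e-04 in that order. Acute drug gave 1.27 ± 0.14 in PC9 and -0.79 ± 0.17 in HCC2935, with adjusted p of 1.6e-06 and 0.0014 in that order, and the interaction had adjusted p = 0.0038 acutely and 3.7e-08 in DTPs. CLDN23, found in gut epithelium, was at 5.57, 5.47 and 4.9 and 9.06, 10.3 and 10.2 CPM under DMSO and in DTPs of PC9, 8.13, 11.1 and 9.02 and 15.8, 15.7 and 14.2 in HCC827, 5.03, 5.94 and 6.33 and 3.69, 3.14 and 3.49 in H1975, and 14.1, 16.4 and 13.9 and 22, 21.1 and 20.1 in HCC2935. DTPs lay above DMSO in 3 lines and below it in H1975, with no overlap in any. For CLDN23 the changes in DTPs were 0.89 ± 0.14 in PC9, 0.69 ± 0.14 in HCC827, -0.74 ± 0.16 in H1975 and 0.51 ± 0.14 in HCC2935, with adjusted p of 4.8e-05, 0.001, 0.0016 and 0.0057 in that order (interaction adjusted p = 3.1e-09).

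CLDN15, which forms a channel for sodium, was at 6.66, 8.52 and 8.64 CPM under DMSO and 11.9, 15.6 and 12 in DTPs of PC9, 17.5, 11.7 and 14.4 and 9.87, 7.41 and 9.51 in H1975, and 9.68, 7.84 and 10.6 and 13.2, 13.2 and 14.5 in HCC2935. No DTP library overlapped the DMSO range in these lines, and the direction in H1975 was opposite to that in PC9 and HCC2935. Its changes in DTPs were 0.73 ± 0.17 in PC9, -0.70 ± 0.18 in H1975 and 0.54 ± 0.18 in HCC2935, with adjusted p of 0.0016, 0.0038 and 0.016 in that order, and it rose acutely in HCC2935 (1.27 ± 0.18). The call for CLDN15 in HCC2935 DTPs was lost without DMSO replicate 2 or DTP replicate 3. The CLDN15 change was then 0.43 or 0.50, with adjusted p = 0.078 or 0.051. CLDN12, an unusual claudin without the common binding end for scaffolds, was at 79.2, 70 and 79.4 CPM under DMSO and 84.7, 92.9 and 102 with acute drug in H1975, and at 171, 163 and 182 and 127, 132 and 153 in HCC2935. The groups did not overlap, and the log2 fold changes were 0.29 ± 0.08 in H1975 and -0.32 ± 0.10 in HCC2935, with adjusted p of 0.0089 and 0.012 in that order (interaction adjusted p = 0.0022). The call for CLDN12 in HCC2935 acute cells was lost without acute osimertinib replicate 1. The CLDN12 change was then -0.27, with adjusted p = 0.055.

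Several claudins of low level also moved. CLDN8 in HCC2935 was at 2.58, 2.6 and 2.08 CPM under DMSO, 13.8, 16.6 and 14.6 with acute drug and 5.58, 5.94 and 4.49 in DTPs, and acute libraries were far above all others. The acute change of CLDN8 was 2.63 ± 0.26 in HCC2935, with adjusted p = 8.7e-07. CLDN11, the claudin of myelin and Sertoli cells, was at 2.58, 1.37 and 1.09 CPM under DMSO and 3.61, 5.34 and 3.43 in DTPs of HCC2935, with a change of 1.29 ± 0.33 in HCC2935, with adjusted p = 0.004. In H1975, CLDN11 was at 4.25, 15.6 and 7.05 under DMSO and 4.95, 4.16 and 1.92 with acute drug, 2 groups that overlapped, with a change of -1.28 ± 0.39 in H1975, with adjusted p = 0.014. The call for CLDN11 in H1975 acute cells was lost without DMSO replicate 2 or acute osimertinib replicate 3. The CLDN11 change was then -0.61 or -0.97, with adjusted p = 0.13 or 0.058. CLDN16, known for magnesium uptake in the kidney and under 1 TPM throughout, was at 0.143, 0.242 and 0.0275 CPM under DMSO and 1.35, 0.874 and 1.27 in DTPs of PC9, and at 0.147, 0.37 and 0.0233 and 1.02, 0.546 and 1.78 in H1975. DTP libraries were above DMSO libraries in both, with changes of 3.01 ± 0.67 in PC9 and 2.61 ± 0.67 in H1975, with adjusted p of 0.0011 and 0.0046 in that order. H1975 also had CLDN16 higher with acute drug, at 0.882, 1.24 and 0.894 CPM, a change of 2.47 ± 0.67 in H1975, with adjusted p = 0.0067.

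**Figure D4:**
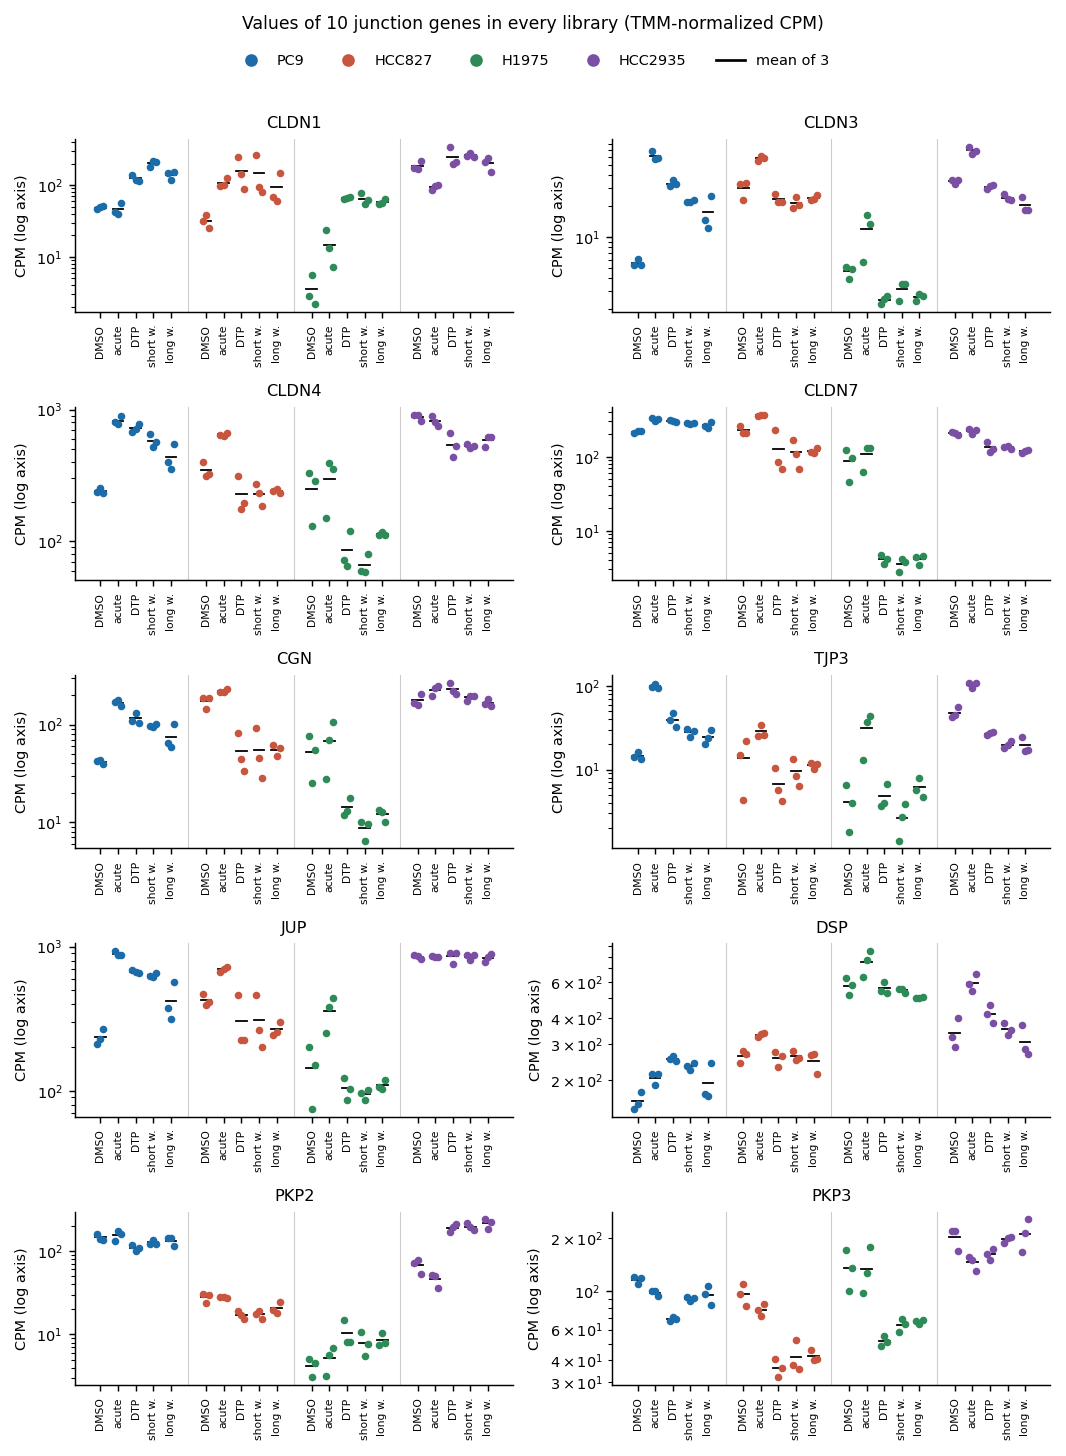
CPM of CLDN1, CLDN3, CLDN4, CLDN7, CGN, TJP3, JUP, DSP, PKP2 and PKP3 in each of the 60 libraries (log axis), by line and group, with 1 point per library. CLDN7 in H1975 falls from 125, 45 and 95.2 under DMSO to 4.69, 3.54 and 4.09 in DTPs and stays there in both washouts.

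The other tight junction membrane proteins rose acutely in most lines. OCLN, MARVELD2 and F11R all rose in PC9 and HCC2935, OCLN and MARVELD2 in HCC827, and F11R in H1975. F11R, the adhesion molecule JAM-A, was at 191, 198 and 208 CPM under DMSO and 128, 80.5 and 72.4 in DTPs of HCC827, with every DTP library under DMSO. DTP libraries were above DMSO in PC9, at 243, 223 and 255 against 184, 198 and 175, in H1975, at 282, 253 and 218 against 195, 92.8 and 186, and in HCC2935, at 467, 588 and 498 against 361, 292 and 312. Changes of F11R in DTPs were 0.37 ± 0.09 in PC9, -1.09 ± 0.19 in HCC827, 0.67 ± 0.21 in H1975 and 0.69 ± 0.11 in HCC2935, with adjusted p of 0.002, 4.3e-04, 0.014 and 1.1e-04 in that order (interaction adjusted p = 2.5e-08). HCC827 had -1.41 without the libraries that stood apart. The call for F11R in H1975 DTPs was lost without DTP replicate 1. The F11R change was then 0.57, with adjusted p = 0.058.

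MARVELD2, or tricellulin, which seals the corners where cells meet, was at 20.7, 20.9 and 20.2 CPM under DMSO and 26.6, 29.8 and 31.4 in DTPs of PC9, 23, 17.3 and 21.4 and 14.1, 14.6 and 12.2 in H1975, and 29.8, 33.5 and 43.6 and 60, 66.8 and 60.1 in HCC2935. DTPs were above DMSO in PC9 and HCC2935 and below it in H1975, without overlap. The changes of MARVELD2 were 0.51 ± 0.11 in PC9, -0.59 ± 0.13 in H1975 and 0.81 ± 0.13 in HCC2935, with adjusted p of 0.001, 0.0016 and 1.0e-04 in that order (interaction adjusted p = 4.1e-06). OCLN, or occludin, a strand protein that is not a claudin, went from 58.4, 74.2 and 78.6 CPM under DMSO to 169, 179 and 173 with acute drug in PC9, and from 34.8, 33.7 and 43.1 to 83.6, 80 and 91.3 in HCC2935. Acute libraries were all above DMSO, and the acute changes of OCLN were 1.30 ± 0.15 in PC9, 0.81 ± 0.14 in HCC827 and 1.19 ± 0.16 in HCC2935, with adjusted p of 2.7e-06, 3.8e-04 and 2.5e-05 in that order.

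In the tight junction plaque, CGN and TJP3 varied most. CGN encodes cingulin, which ties the plaque to actin and myosin. It is shown by the 250 bases before its start, chr1:151511137-151511386 on the plus strand of GRCh38.p14 (RefSeq), where no exon is annotated. It was chosen because, read along the strand of the gene only, it was the only member promoter with AACNGGTT. The motif is in capitals, 27 bases before the start.
CGN: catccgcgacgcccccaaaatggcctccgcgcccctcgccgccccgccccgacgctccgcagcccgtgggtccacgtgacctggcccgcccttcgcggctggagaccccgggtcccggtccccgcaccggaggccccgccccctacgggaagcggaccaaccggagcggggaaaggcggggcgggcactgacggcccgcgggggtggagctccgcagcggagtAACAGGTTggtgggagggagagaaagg

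CGN was at 42.7, 43.1 and 38.9 CPM under DMSO and 110.0, 132 and 104 in DTPs of PC9, and at 188, 145 and 186 and 81.1, 44.7 and 33.5 in HCC827. H1975 held 75.6, 25.2 and 54.4 and 11.8, 13 and 17.6, and HCC2935 166, 157 and 208 and 266, 223 and 204. Every DTP library was above DMSO in PC9 and below it in HCC827 and H1975, while the ranges overlapped in HCC2935. The log2 fold changes of CGN in DTPs were 1.47 ± 0.16 in PC9, -1.70 ± 0.35 in HCC827, -1.88 ± 0.42 in H1975 and 0.38 ± 0.13 in HCC2935, with adjusted p of 1.8e-06, 0.0012, 0.0017 and 0.018 in that order (interaction adjusted p = 1.1e-08). Without the libraries that stood apart, the HCC827 value was -2.17 (adjusted p = 3.4e-06). The call for CGN in HCC2935 DTPs was lost without DMSO replicate 1, DMSO replicate 2 or DTP replicate 1. The CGN change was then 0.34, 0.30 or 0.26, with adjusted p = 0.069, 0.086 or 0.1.

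TJP3, the scaffold most restricted to epithelia, rose with acute drug in PC9, H1975 and HCC2935. In PC9 it was at 14, 16.3 and 13.3 CPM under DMSO, 98.4, 105 and 95.4 with acute drug and 39.5, 47.5 and 31.9 in DTPs, and in H1975 at 6.5, 1.76 and 3.93, 13.1, 37 and 44.1 and 3.67, 4.01 and 6.71. HCC2935 held 42.8, 44.8 and 56.3 under DMSO, 109, 96.3 and 108 with acute drug and 25.8, 27.3 and 27.9 in DTPs, so that DTPs were below DMSO in each library although acute cells were above it. Acute changes of TJP3 were 2.78 ± 0.16 in PC9, 2.95 ± 0.51 in H1975 and 1.12 ± 0.14 in HCC2935, with adjusted p of 2.2e-08, 2.4e-04 and 7.8e-06 in that order. Its changes in DTPs were 1.45 ± 0.16 in PC9 and -0.83 ± 0.14 in HCC2935, with adjusted p of 2.3e-06 and 1.2e-04 in that order (interaction adjusted p = 1.9e-04), and DTPs of H1975, which overlapped DMSO, did not pass.

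TJP1, the scaffold present in nearly all junction-forming cells, was at 159.5, 179 and 197 CPM under DMSO and 259.8, 221 and 262 in DTPs of PC9, 319, 404 and 312 and 309.7, 234 and 239 in HCC827, and 373, 403 and 349 and 488, 465 and 408 in HCC2935. DTPs were above DMSO in PC9 and HCC2935 and below it in HCC827, without overlap, by 0.47 ± 0.11 in PC9, -0.40 ± 0.14 in HCC827 and 0.28 ± 0.10 in HCC2935, with adjusted p of 0.0011, 0.026 and 0.034 in that order (interaction adjusted p = 2.0e-05). Acute drug raised it in PC9 by 0.65 ± 0.11 and lowered it in HCC2935 (-0.30 ± 0.10, adjusted p = 0.027). The call for TJP1 in HCC827 DTPs was lost without DMSO replicate 2, DTP replicate 2 or DTP replicate 3. The TJP1 change was then -0.28, -0.33 or -0.37, with adjusted p = 0.13, 0.098 or 0.082. It was -0.58 (adjusted p = 0.0024) without the libraries that stood apart. The call for TJP1 in HCC2935 DTPs was lost without DMSO replicate 1, DMSO replicate 3, DTP replicate 1 or DTP replicate 2. The TJP1 change was then 0.27, 0.23, 0.22 or 0.26, with adjusted p = 0.083, 0.12, 0.13 or 0.088. The call for TJP1 in HCC2935 acute cells was lost without DMSO replicate 1, DMSO replicate 2, acute osimertinib replicate 1 or acute osimertinib replicate 3. The TJP1 change was then -0.30, -0.25, -0.30 or -0.24, with adjusted p = 0.058, 0.11, 0.059 or 0.11.

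Of the desmosomal cadherins, DSG2 and DSC2, the pair of simple epithelia, were present in every group. DSC2 was at 17.5, 17 and 18.6 CPM under DMSO and 37.8, 39.6 and 37 in DTPs of PC9, 54.9, 17.3 and 47.2 and 19.2, 23.8 and 21.5 in H1975, and 133, 119.8 and 140.3 and 101, 90 and 84.6 in HCC2935. DTPs were above DMSO in PC9 and below it in HCC2935, while H1975 overlapped through its low DMSO replicate 2. The changes of DSC2 in DTPs were 1.11 ± 0.16 in PC9, -0.89 ± 0.35 in H1975 and -0.52 ± 0.13 in HCC2935, with adjusted p of 2.2e-05, 0.048 and 0.0027 in that order (interaction adjusted p = 4.1e-05). The call for DSC2 in H1975 DTPs was lost without DMSO replicate 1, DMSO replicate 3, DTP replicate 1, DTP replicate 2 or DTP replicate 3. The DSC2 change was then -0.59, -0.76, -0.81, -0.97 or -0.89, with adjusted p = 0.21, 0.13, 0.13, 0.066 or 0.1. Acute drug raised DSC2 in PC9 and HCC827, by 0.70 ± 0.16 and 0.79 ± 0.21, and lowered it in HCC2935 (-0.34 ± 0.13, adjusted p = 0.038). The call for DSC2 in HCC2935 acute cells was lost without DMSO replicate 1, DMSO replicate 3, acute osimertinib replicate 1, acute osimertinib replicate 2 or acute osimertinib replicate 3. The DSC2 change was then -0.33, -0.29, -0.33, -0.36 or -0.33, with adjusted p = 0.087, 0.11, 0.083, 0.066 or 0.083.

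DSG2 was at 207, 196 and 206 CPM under DMSO and 235, 247 and 234 with acute drug in PC9, and at 555, 566 and 554 and 398, 417 and 375 in HCC2935. Acute libraries were above DMSO in PC9 and below it in HCC2935, with changes of 0.23 ± 0.06 in PC9 and -0.49 ± 0.08 in HCC2935, with adjusted p of 0.0035 and 7.0e-05 in that order (interaction adjusted p = 7.2e-05). DSC3, the desmocollin of the basal layer of stratified epithelia, was at 5.07, 10.3 and 11 CPM under DMSO and 41.2, 28.5 and 45 in DTPs of HCC827, every DTP library being above DMSO (2.12 ± 0.27 in HCC827, with adjusted p = 2.9e-05). DSG1, the desmoglein of the upper skin layers, which stayed under 1 TPM, was at 1.71, 0.90 and 1.59 CPM under DMSO and 0.408, 0.444 and 0.235 in DTPs of the same line, with no overlap (-1.93 ± 0.51 in HCC827, with adjusted p = 0.0069). Without the libraries that stood apart, these 2 values were 2.03 for DSC3 and -2.05 for DSG1 (adjusted p = 1.3e-04 and 0.018).

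In the desmosomal plaque, DSP rose acutely in all 4 lines and JUP in PC9 and H1975, and the plakophilins differed from one another. DSP, desmoplakin, which anchors keratin filaments, was at 144, 153 and 174 CPM under DMSO and 213, 188 and 214 with acute drug in PC9, 241, 277 and 268 and 322, 336 and 340.0 in HCC827, 626, 518 and 580.2 and 636, 772 and 849 in H1975, and 325, 289 and 400.3 and 586, 544 and 659.8 in HCC2935. Acute libraries were above DMSO libraries in all 4 lines. The acute changes of DSP were 0.38 ± 0.12 in PC9, 0.35 ± 0.10 in HCC827, 0.39 ± 0.10 in H1975 and 0.82 ± 0.14 in HCC2935, with adjusted p of 0.011, 0.015, 0.005 and 1.5e-04 in that order, and the interaction did not pass (adjusted p = 0.077). The call for DSP in PC9 acute cells was lost without DMSO replicate 1. The DSP change was then 0.32, with adjusted p = 0.052. The call for DSP in HCC827 acute cells was lost without DMSO replicate 1. The DSP change was then 0.29, with adjusted p = 0.065. JUP, plakoglobin, shared by desmosomes and adherens junctions, went from 210.4, 228 and 269 CPM to 929, 875 and 869 with acute drug in PC9 and from 203, 75.1 and 152 to 252, 379 and 437 in H1975, without overlap (1.92 ± 0.16 in PC9 and 1.31 ± 0.27 in H1975, with adjusted p of 2.2e-07 and 9.9e-04 in that order). It was at 872, 867 and 815 under DMSO and 858, 847 and 843 with acute drug in HCC2935, where the groups overlapped and the test did not pass.

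PKP2 was at 159, 140.3 and 135 CPM under DMSO and 118, 101 and 108 in DTPs of PC9, and at 30.6, 23.9 and 29.7 and 19.2, 16.9 and 15.4 in HCC827. In H1975 it was at 5.13, 3.1 and 4.49 and 14.8, 8.17 and 8.15, and in HCC2935 at 70.9, 77.7 and 53 and 168, 193 and 209. DTPs were below DMSO in PC9 and HCC827 and above it in H1975 and HCC2935, without overlap. The changes of PKP2 in DTPs were -0.41 ± 0.11 in PC9, -0.71 ± 0.14 in HCC827, 1.29 ± 0.33 in H1975 and 1.5 ± 0.16 in HCC2935, with adjusted p of 0.0049, 0.0012, 0.0044 and 1.4e-06 in that order (interaction adjusted p = 1.8e-09). HCC827 had -0.83 without the libraries that stood apart. PKP3, a plakophilin of most epithelia, fell in PC9 DTPs from 120.1, 109 and 119 to 67.2, 70.5 and 69.3 CPM, each library being under DMSO (-0.75 ± 0.08 in PC9, with adjusted p = 2.6e-06). Its DTP changes in HCC827 and H1975 were -1.39 ± 0.15 and -1.40 ± 0.20, and HCC2935, at 163, 151 and 174 against 219, 220.3 and 168 CPM, did not pass. With acute drug the PC9 change of PKP3 was -0.24 ± 0.08. The call for PKP3 in PC9 acute cells was lost without DMSO replicate 1, DMSO replicate 3 or acute osimertinib replicate 3. The PKP3 change was then -0.22, -0.23 or -0.22, with adjusted p = 0.058, 0.052 or 0.064.

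PKP1, the plakophilin of stratified epithelia, was at 1.17, 1.95 and 0.578 CPM under DMSO and 2.16, 2.27 and 2.64 in DTPs of PC9, and at 4.99, 3.78 and 6.82 and 1.63, 0.957 and 0.725 in HCC2935. DTP libraries were above DMSO in PC9 and below it in HCC2935, at levels of a few CPM, with changes of 0.92 ± 0.38 in PC9 and -2.22 ± 0.62 in HCC2935, with adjusted p of 0.043 and 0.0066 in that order (interaction adjusted p = 0.0067). The call for PKP1 in PC9 DTPs was lost without DMSO replicate 1, DMSO replicate 3, DTP replicate 1, DTP replicate 2 or DTP replicate 3. The PKP1 change was then 0.87, 0.58, 0.98, 0.94 or 0.80, with adjusted p = 0.1, 0.17, 0.061, 0.071 or 0.12. PKP4, a relative found in both desmosomes and adherens junctions, fell with acute drug from 91.8, 82.8 and 91.8 to 62.9, 65.3 and 67.6 CPM in PC9, 112, 114 and 122 to 72.7, 86.8 and 94.5 in H1975 and 219, 205 and 249 to 128, 126 and 172 in HCC2935. No acute library reached the DMSO range in these lines (-0.44 ± 0.09 in PC9, -0.45 ± 0.11 in H1975 and -0.66 ± 0.11 in HCC2935, with adjusted p of 6.3e-04, 0.0039 and 1.9e-04 in that order). In HCC827 PKP4 was at 139, 149 and 187 and 159.5, 192 and 174 CPM and did not pass (interaction adjusted p = 1.1e-04).

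**Figure D5:**
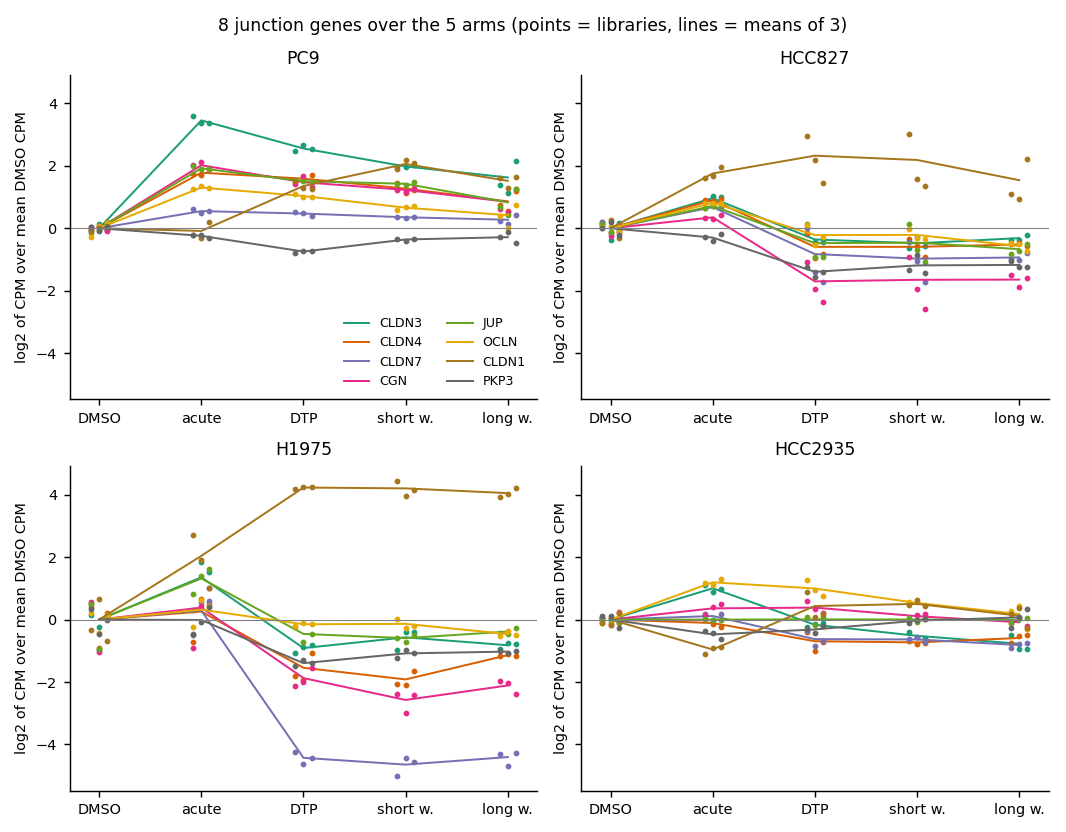
Log2 ratio of each group's mean CPM to the DMSO mean for CLDN3, CLDN4, CLDN7, CGN, JUP, OCLN, CLDN1 and PKP3 across DMSO, acute drug, DTP, short and long washout, with 1 panel per cell line, 1 trace per gene and points for single libraries. In PC9 most of these climb with acute drug and are lower again in the long washout, and in H1975 CLDN7 stays low after DTPs.

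Each washout of PC9 was compared with the DTPs. After the short washout, 3 of 30 were called against DTPs, all higher, beside 3.87% and 2.05% of all genes (medians -0.08 and -0.01). DESeq2 called 5, and 7 passed without the libraries that stood apart. After the long washout 2 of 30 were higher and 13 lower than in DTPs, beside 20.4% and 16.8% (medians -0.42 and -0.02). Against DMSO, the long washout still had 15 of 30 higher and 1 lower, beside 23.4% and 21.5% (medians 0.49 and 0.02). The courses of 8 genes over the groups are plotted. CLDN3 was at 14.6, 12.2 and 25.2 CPM after the long washout, against 31, 35.5 and 32.5 in DTPs and 5.35, 6.13 and 5.39 under DMSO, so replicate 3 lay nearest to the DTPs. Its change was -0.93 ± 0.19 from DTPs and 1.62 ± 0.20 against DMSO, and -1.27 from DTPs without replicate 3. CLDN4 went from 675, 706 and 782 to 401, 354 and 549.8 CPM, a change of -0.73 ± 0.13 in PC9, with adjusted p = 0.0015 from DTPs and -0.90 without replicate 3.

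PC9 long washout replicate 3 also had genes induced by ERK signalling at 104, 117 and 32.2 TPM in sum, in the order of replicates, so that it was the low one. The part of this in the results was not tested. Without it, 3 members were higher and 16 lower than in DTPs, and without long washout replicate 2 9 were called in all. PKP3 and PKP4 rose in both washouts of PC9. PKP3 was at 67.2, 70.5 and 69.3 CPM in DTPs, 92.1, 87.9 and 90.7 after the short and 96.1, 106 and 82.6 after the long washout, with changes of 0.39 ± 0.08 and 0.46 ± 0.08 from DTPs. CLDN1 was at 46, 48.9 and 51.3 CPM under DMSO, 139, 118 and 115 in DTPs and 180.3, 221 and 207 after the short washout, all above the DTPs and farther from DMSO (0.71 ± 0.13 in PC9, with adjusted p = 0.011). The call for CLDN1 in PC9 after short washout was lost without DTP replicate 2 or short washout replicate 2. The CLDN1 change was then 0.67 or 0.66, with adjusted p = 0.067 or 0.058. The call for PKP3 in PC9 after short washout was lost without DTP replicate 1, DTP replicate 2, DTP replicate 3, short washout replicate 1, short washout replicate 2 or short washout replicate 3. The PKP3 change was then 0.37, 0.40, 0.41, 0.37, 0.43 or 0.38, with adjusted p = 0.059, 0.074, 0.052, 0.067, 0.056 or 0.05. Leaving out any 1 of the 6 DTP and short washout libraries left 0 or 1 of the 3 short washout calls: 1 without DTP replicate 1 or 3 or short washout replicate 1 or 3, and 0 without replicate 2 of either. The 1 left was CLDN1, so the short washout call for PKP4 was lost in each of these fits.

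In HCC2935 the short washout gave 0 of 30 members called in edgeR, beside 2.32% of all genes higher and 0.816% lower (medians -0.03 and -0.01). At an unadjusted p under 0.05, 7 passed (CGN, CLDN3, CLDN8, F11R, OCLN, PKP4 and TJP3), while DESeq2 called 3 and limma 0. The share of all genes at that p or in those tools is not given, so these counts are no result about the members. After the long washout 7 of 30 were called against DTPs, all lower (CGN, CLDN3, CLDN8, DSC2, DSP, OCLN and TJP3), beside 4.94% lower and 6.82% higher (medians -0.08 and -0.00). Without DTP replicate 1, DTP replicate 2 or long washout replicate 3, 4, 4 or 4 were called. OCLN was at 88.9, 71.2 and 62.1 CPM in DTPs and 45.1, 50.5 and 30.4 after the long washout, every washout library being lower (-0.82 ± 0.16 in HCC2935, with adjusted p = 0.0044). CLDN8 was at 5.58, 5.94 and 4.49 in DTPs and 1.27, 2.51 and 1.12 after the long washout, again without overlap (-1.70 ± 0.26 in HCC2935, with adjusted p = 0.0011). Against DMSO, the long washout had 6 of 30 higher and 9 lower, beside 22.5% and 20.8% (medians -0.05 and 0.01). PKP2 and CLDN11 stayed above DMSO, by 1.67 ± 0.16 and 1.65 ± 0.33, and PKP1 and TJP3 below it, by -1.63 ± 0.60 and -1.29 ± 0.14. The call for PKP1 in HCC2935 after long washout was lost without DMSO replicate 1, DMSO replicate 3, long washout replicate 2 or long washout replicate 3. The PKP1 change was then -1.66, -1.38, -1.65 or -1.19, with adjusted p = 0.066, 0.11, 0.077 or 0.12.

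HCC827 and H1975 had no member called in the main test of a washout against DTPs. In HCC827, edgeR called 0 of 29 members in either washout against DTPs, beside 0% higher and 0% lower for all genes after the short and 0% and 0% after the long washout. At an unadjusted p under 0.05, 1 passed in each, CLDN2 and OCLN, and DESeq2 and limma called 0. In H1975, edgeR called 0 of 31 after the short washout, beside 0.0585% and 0% of all genes, and 0 after the long one, beside 0% and 0.00650%. Without adjustment, 2 (F11R and PKP4) and 1 (CLDN5) passed at p under 0.05, and DESeq2 and limma called 0. Same-numbered libraries of DTP and short washout were alike in both lines, which a replicate block can use. In a fit of the 6 libraries with that block, added after the data were seen, H1975 had 2 of 27 members higher and 4 lower after the short washout, beside 6.70% and 4.87% of all genes in that fit. In HCC827 edgeR called 0 of 27 in it, beside 0% and 0.0143% of all genes, while 5 passed at an unadjusted p under 0.05. TJP3 in H1975, at 3.67, 4.01 and 6.71 CPM in DTPs and 1.41, 2.67 and 3.81 after the short washout, and CGN, at 11.8, 13 and 17.6 and 9.95, 6.46 and 9.62, were lower in each pair of libraries. The paired log2 fold changes were -0.91 for TJP3, -0.71 for CGN, -0.46 for F11R and -0.34 for CLDN4, and 0.44 for CLDN11 and 0.31 for PKP3.

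In the long washouts of both lines no proliferation gene was called against DTPs, and all 4 were below DMSO. MKI67 was at a mean of 175 CPM in HCC827, against 177 in DTPs and 486 under DMSO. In H1975 it was at 182, against 227 and 741. In the long washouts of PC9 and HCC2935 all 4 were higher than in DTPs. Of genes induced by ERK signalling, ETV4 in H1975 averaged 31.3 CPM under DMSO, 2.05 in DTPs, 4.28 after the short and 2.32 after the long washout. DUSP6 averaged 10.3, 1.37, 0.992 and 1.25 there, and SPRY2, the other way, 13.6, 21.0, 18.2 and 21.7. DUSP6 in HCC827 DTPs overlapped DMSO, at 10.8, 26.5 and 10.0 against 17.4, 21.2 and 21.4, while ETV4 averaged 9.45 against 25.2. The part of this in the results was not tested. The long washouts of HCC827 and H1975 were also compared with DMSO. HCC827 had 4 of 29 higher and 12 lower, beside 21.9% and 20% (medians -0.36 and 0.02). H1975 had 4 of 31 higher and 15 lower, beside 27.3% and 26.0% (medians -0.47 and 0.03). CLDN2, which forms a channel for water and cations, was at 1.14, 0.90 and 1.59 CPM under DMSO, 1.38, 5.32 and 8.03 in DTPs and 16.1, 18.3 and 6.06 after the long washout of HCC827. All long washout libraries were above DMSO, replicate 3 being the lowest of them, with a change of 3.47 ± 0.82 in HCC827, with adjusted p = 0.0035. DSC3 stayed above DMSO in HCC827, by 1.92 ± 0.27, and DSG1 and CGN below it, by -2.37 ± 0.53 and -1.64 ± 0.35. In H1975, CLDN1 and CLDN16 stayed above DMSO, by 4.05 ± 0.38 and 2.72 ± 0.67, and CLDN7 and CLDN9 below it, by -4.40 ± 0.37 and -3.72 ± 0.44.

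The same question was put to 36 other genes of junctions and cell polarity, among them the adherens junction cadherin CDH1, nectins, catenins and polarity proteins. Of those tested, 18, 8, 13 and 8 rose and 6, 1, 3 and 5 fell with acute drug in PC9, HCC827, H1975 and HCC2935, in that order, beside 34.5%, 18.7%, 27.8% and 24.9% of all genes higher and 31.7%, 20.2%, 23.8% and 22.2% lower. In DTPs, 18, 8, 8 and 9 were higher and 4, 9, 8 and 8 lower, beside 35.7%, 23.0%, 26.0% and 27.0% of all genes higher and 33.5%, 20.4%, 25.7% and 25.8% lower. All 36 were tested except 1 in H1975. CDH1, E-cadherin, was at 359, 128 and 322 CPM under DMSO and 5.41, 8.3 and 9.19 in DTPs of H1975, 983, 1094 and 1079 and 497, 218 and 180.4 in HCC827, and 310.3, 292 and 326 and 707, 633 and 643 in PC9. DTPs were below DMSO in H1975 and HCC827 and above it in PC9, with no overlap (-5.14 ± 0.47 in H1975, -1.82 ± 0.40 in HCC827 and 1.1 ± 0.12 in PC9, with adjusted p of 1.4e-06, 0.0021 and 3.2e-06 in that order). NECTIN4, a nectin of epithelia, fell in H1975 DTPs by 4.81 and HCC2935 DTPs by 2.40, and was higher in those of PC9 (2.37 ± 0.36). CTNNB1, beta-catenin, fell with acute drug in all 4 lines (-0.61 ± 0.08 in PC9, -0.48 ± 0.07 in HCC827, -0.45 ± 0.10 in H1975 and -0.67 ± 0.10 in HCC2935, with adjusted p of 1.3e-05, 1.1e-04, 0.0019 and 5.6e-05 in that order).

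Mesenchymal markers (VIM, CDH2, FN1, COL1A1, COL1A2 and PDGFRB) moved in DTPs too. Of the 6, 4 rose and 2 fell in PC9, and 5, 2 and 5 rose in HCC827, H1975 and HCC2935. Of the 6 epithelial markers, 2 rose and 3 fell in PC9, and 5, 4 and 4 fell in the other 3. Of all genes, 35.7%, 23.0%, 26.0% and 27.0% were higher and 33.5%, 20.4%, 25.7% and 25.8% lower in that order of lines. The 2 mesenchymal rises in H1975 are near that share. The mesenchymal sum went from 151, 159 and 141 TPM under DMSO to 997, 1029 and 1093 in DTPs of HCC827, with VIM the most abundant. In H1975 it went from 1279, 2109.5 and 1238 to 2488, 1880.0 and 2301, also with VIM, and the 2 groups overlapped. In PC9 it went from 53.1, 39.6 and 54.3 to 422, 322 and 583 TPM and in HCC2935 from 1297, 1374 and 1170.0 to 5281, 6786 and 7472, with FN1 the most abundant in both. The epithelial sum went from 10635, 9972 and 8229 to 5892, 3346 and 4702 TPM in HCC827, 4621, 3615 and 4163 to 3107, 2550.0 and 2369.9 in H1975, 12836, 13521 and 12261 to 10466, 10702 and 11554 in HCC2935 and 8948, 8776 and 8596 to 9849.8, 9749 and 10180.0 in PC9. The rise in PC9 may rest on the unit, since TPM lack the trimmed-mean scaling. KRT7 there went from a mean of 1811 to 1829 TPM but from 2098 to 1782 CPM, and 3 of the 6 markers fell in the test. DTP replicate 1 of HCC827, where the junction sum was high, had a mesenchymal sum like the other 2 libraries and the highest epithelial sum. Single mesenchymal markers did differ in that library. Its CDH2 was the lowest, at 13.1 CPM against 51.5 and 52.0, and its COL1A1 the highest, at 102 against 55.9 and 88.3. The part of these changes in the results for the junction genes was not tested, and in bulk RNA fewer cells of a type and less RNA per cell cannot be told apart. HCC2935 DTPs also had less NAPSA, at 17.9, 16.9 and 14.2 CPM against 223, 214 and 175 under DMSO (-3.64 ± 0.29 in HCC2935, with adjusted p = 6.2e-08). NAPSA was also lower in HCC827 DTPs, at 23.2, 15.2 and 16.1 against 50.1, 29.1 and 82.5 CPM (-1.57 ± 0.36 in HCC827, with adjusted p = 0.0029), and higher in PC9 DTPs, at 1.66, 3.64 and 2.64 against 0.286, 0.505 and 0.33 (2.80 ± 0.50 in PC9, with adjusted p = 1.6e-04). In H1975 DTPs, at 2.15, 1.48 and 3.79 against 1.54, 1.62 and 1.35, it did not pass. SFTPB, another lineage marker, was called in DTPs of no line, with changes of 0.77 in PC9, 0.49 in HCC827, 0.98 in H1975 and 0.75 in HCC2935. SFTPC was tested in H1975 alone and was higher in DTPs, at a mean of 0.277 against 0.0148 CPM (3.98 ± 1.14, adjusted p = 0.0091). With acute drug NAPSA rose in all 4 lines (2.33 ± 0.50 in PC9, 1.37 ± 0.35 in HCC827, 1.75 ± 0.33 in H1975 and 0.78 ± 0.25 in HCC2935, with adjusted p of 8.0e-04, 0.0067, 5.4e-04 and 0.019 in that order). SFTPB passed in none, with acute changes of 0.40 in PC9, -1.41 in HCC827, 0.87 in H1975 and -0.22 in HCC2935. SFTPC in H1975 did not pass either (2.78 ± 1.25). Squamous or basal markers did not share 1 direction. In HCC2935 DTPs KRT6A, KRT14 and SOX2 were lower, by -5.02 ± 0.21, -1.89 ± 0.34 and -2.53 ± 0.21, and KRT5 higher, by 2.06 ± 0.60, while with acute drug KRT6A and KRT14 fell there, by -3.97 ± 0.20 and -2.01 ± 0.34, and SOX2 rose, by 0.87 ± 0.19. In PC9 KRT5 and KRT14 were higher with acute drug, by 1.03 ± 0.22 and 4.55 ± 0.74, and in DTPs, by 0.60 ± 0.22 and 4.81 ± 0.73. KRT14 rested on few reads there, at a mean of 0.0355 CPM under DMSO, 0.876 with acute drug and 1.05 in DTPs. In H1975 DTPs SOX2 and TP63 were lower, by -2.44 ± 0.80 and -1.57 ± 0.63. SOX2 averaged 0.586 CPM under DMSO and 0.108 in DTPs. TP63 was at 14.1, 2.66 and 9.61 CPM under DMSO and 3.58, 2.39 and 2.90 in DTPs, which overlapped through DMSO replicate 2 (adjusted p = 0.049).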

How the data were processed

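RNA of 4 cell lines in 5 groups was sequenced in biological triplicates. The authors deposited a table of estimated counts and a table of log2 TPM with a pseudocount of 0.01; the submitters' processing notes name HISAT2 2.1.0, Salmon 0.8.2 and hg38 without stating the role of each. The estimated counts were made whole by rounding, and TPM were recovered from the log2 values. In R 4.3.3, edgeR 4.0.16 was used per line (filterByExpr, trimmed-mean scaling, quasi-likelihood F-test over the 15 libraries, Benjamini-Hochberg over all genes tested), and for differences between lines in 1 fit of 60 libraries and 20 groups with 3 degrees of freedom. Tables and figures used Python 3.11.15, numpy 2.4.6, pandas 2.3.3 and matplotlib 3.10.9. The scripts were tested on simulated data. The members and lists were chosen with earlier results of these data known. A member that met the naming rule is not reported here. Named for their level were members with a mean of at least 1 TPM in at least 1 group; for a change, where either group averaged at least 1 CPM and the member was called, the named were the 2 largest rises and 2 largest falls per line and comparison, and, with acute drug or in DTPs, those called in 1 direction in all 4 lines or in opposite directions in different lines. Libraries of the same number were checked for pairing by the correlation of their residuals: all 3 were above 0.1 for short washout with DTP in HCC827 and H1975 and for acute drug with DMSO in HCC2935. In the paired fit of HCC2935 acute drug and DMSO, chosen after seeing the data, CLDN12, DSC2 and TJP1 changed by -0.37, -0.38 and -0.35. Their adjusted p in that fit were 0.0025, 0.0041 and 0.0018. Alternatives were RLE size factors, scaling by library size, no filter, DESeq2 1.42.0, limma 3.58.1 on log2 TPM, only the 2 groups compared, all 60 libraries, a replicate block, a threshold of 0.01 and leaving out each library; 2 more, named in the closing section, were chosen after seeing the data. Promoters came from RefSeq and gene overlaps from GENCODE 29.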

Additional observations from a re-analysis of the deposited data

Results flagged for a closer look

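Some junction genes rose in 1 cell line and fell in another under the same treatment. They are listed with the test of the difference between lines, the interaction of treatment and line, but they were picked by opposite calls in the same libraries, so a passed interaction follows largely from that choice and is not further evidence. With acute osimertinib this held for 6 genes, with adjusted p of the interaction of 2.9e-06 for CLDN1, 0.0038 for CLDN9, 0.0022 for CLDN12, 0.021 for DSC2, 7.2e-05 for DSG2 and 3.6e-05 for TJP1. In DTPs it held for 15 genes, among them 6 claudins, with adjusted p of 1.0e-12 for CLDN3, 2.2e-09 for CLDN4, 2.3e-12 for CLDN7, 3.7e-08 for CLDN9, 1.6e-05 for CLDN15 and 3.1e-09 for CLDN23. Values for other tight junction genes were 2.5e-08 for F11R, 4.1e-06 for MARVELD2, 1.1e-08 for CGN, 2.0e-05 for TJP1 and 1.9e-04 for TJP3. For desmosome genes they were 4.1e-05 for DSC2, 0.0067 for PKP1 and 1.8e-09 for PKP2. The 6 and 15 genes are out of 30 members tested in at least 2 lines. Of all 15419 genes so tested, 6.82% were called in opposite directions with acute drug and 16.2% in DTPs. The direction in each line, with the value in each library, is given in the results above.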

How the results depend on the processing

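Counts of junction genes called were repeated under other settings: 326 of 360 stayed within 1.5 times the reported count and 34 did not, and the cause was not tested. Of 1797 repeats of the 109 fold changes named, 1671 kept direction and call, 126 kept direction without the call, and none reversed; 76 of the 109 kept their call under every setting. With DESeq2, the count was 5 (reported 3) for PC9, short washout against DTP and 3 (reported 0) for HCC2935, short washout against DTP. In a fit of all 60 libraries, the count was 1 (reported 3) for PC9, short washout against DTP, 8 (reported 15) for PC9, long washout against DTP, 9 (reported 16) for PC9, long washout against DMSO, 14 (reported 9) for HCC827, acute osimertinib against DMSO and 4 (reported 7) for HCC2935, long washout against DTP. In a fit of only the 2 groups compared, the count was 8 (reported 3) for PC9, short washout against DTP, 4 (reported 15) for PC9, long washout against DTP, 9 (reported 16) for PC9, long washout against DMSO and 3 (reported 7) for HCC2935, long washout against DTP. In a paired fit, with a replicate block and only the 2 groups compared, which was chosen after seeing the data, the count was 6 (reported 3) for PC9, short washout against DTP, 6 (reported 15) for PC9, long washout against DTP, 7 (reported 16) for PC9, long washout against DMSO, 5 (reported 12) for H1975, acute osimertinib against DMSO, 6 (reported 0) for H1975, short washout against DTP and 0 (reported 7) for HCC2935, long washout against DTP. With a threshold of 0.01, the count was 0 (reported 3) for PC9, short washout against DTP, 9 (reported 15) for PC9, long washout against DTP, 10 (reported 16) for HCC827, long washout against DMSO and 4 (reported 7) for HCC2935, long washout against DTP. Without the libraries that stood apart, also chosen after seeing the data, the count was 7 (reported 3) for PC9, short washout against DTP and 20 (reported 12) for HCC827, DTP against DMSO. The replicate block in the fit of all 15 libraries, RLE size factors, scaling by library size, no filter and limma on log2 TPM moved no count that far. Leaving out 1 library at a time gave, in PC9, 17 to 22 for acute osimertinib against DMSO, 24 to 26 for DTP against DMSO, 0 to 1 for short washout against DTP, 9 to 19 for long washout against DTP and 13 to 18 for long washout against DMSO. Leaving out 1 library at a time gave, in HCC827, 7 to 12 for acute osimertinib against DMSO, 10 to 19 for DTP against DMSO, 0 to 0 for short washout against DTP, 0 to 0 for long washout against DTP and 11 to 17 for long washout against DMSO. Leaving out 1 library at a time gave, in H1975, 10 to 15 for acute osimertinib against DMSO, 14 to 20 for DTP against DMSO, 0 to 0 for short washout against DTP, 0 to 0 for long washout against DTP and 15 to 22 for long washout against DMSO. Leaving out 1 library at a time gave, in HCC2935, 14 to 18 for acute osimertinib against DMSO, 17 to 23 for DTP against DMSO, 0 to 0 for short washout against DTP, 4 to 8 for long washout against DTP and 14 to 16 for long washout against DMSO. Leaving out 1 replicate number at a time gave 31 to 31 for the level under DMSO between the 4 lines, 13 to 18 for the acute response between the 4 lines and 21 to 24 for the DTP response between the 4 lines. Limits: a group left with 2 libraries borrows its spread from the other groups, 3 libraries per group leave small changes undetected, members at a few CPM (CLDN2, CLDN11, CLDN16, DSG1 and PKP1) rest on few reads, and estimated counts were rounded before the test.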

Other observations

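Of 14 transcription factors known to act on epithelial junction genes, 13 of them tested in HCC827 and in H1975, acute osimertinib raised 7 in PC9, 3 in HCC827, 2 in H1975 and 1 in HCC2935, and 2 fell in HCC827 and 5 in HCC2935. All genes had 34.5%, 18.7%, 27.8% and 24.9% higher and 31.7%, 20.2%, 23.8% and 22.2% lower in PC9, HCC827, H1975 and HCC2935. In DTPs 6, 3, 3 and 3 factors were higher and 1, 6, 6 and 7 lower, in that order of lines, beside 35.7%, 23.0%, 26.0% and 27.0% and 33.5%, 20.4%, 25.7% and 25.8% of all genes. ELF3, an epithelial ETS factor and the most abundant of the list, was at 98.3, 114 and 104 CPM under DMSO and 827, 757 and 734 with acute drug in PC9, and at 70.4, 23.4 and 63.5 and 79.6, 217 and 220.3 in H1975. Acute libraries were above DMSO in both lines, and the acute log2 fold changes of ELF3 were 2.87 ± 0.17 in PC9, 0.98 ± 0.24 in HCC827, 1.72 ± 0.47 in H1975 and 0.62 ± 0.17 in HCC2935, with adjusted p of 2.4e-08, 0.0044, 0.0072 and 0.0088 in that order. GRHL3, a grainyhead-like factor of surface epithelia, was at 7.75, 8.57 and 9.38 CPM under DMSO, 83.2, 81.1 and 79.1 with acute drug and 54, 63.4 and 52.8 in DTPs of PC9, again without overlap (3.24 ± 0.34 in PC9, with adjusted p = 1.5e-06 acutely). ZEB1, a repressor of epithelial genes, was at 3.42, 6.97 and 3.53 CPM under DMSO and 17.5, 33.8 and 35.5 in DTPs of HCC827, and ZEB2 at 1.14, 2.65 and 0.136 and 20.5, 32 and 40.6, every DTP library being higher. The changes there were 2.64 ± 0.35 for ZEB1 and 4.57 ± 0.53 for ZEB2, with adjusted p = 3.9e-05 and 1.3e-05.

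In H1975, single DMSO and acute libraries differed from their group in several of these genes at once. Under DMSO, CDH1 was at 359, 128 and 322 CPM, GRHL2 at 5.87, 0.647 and 4.3, OVOL1 at 7.89, 2.63 and 6.4 and ZEB1 at 12, 26.8 and 15.3, so that replicate 2 was the lowest in the first 3 and the highest in the last. With acute drug the same genes were at 131, 349 and 427, 0.817, 3.37 and 4.01, 3.03, 8.89 and 10.8 and 23.3, 14.6 and 12.7 CPM, and replicate 1 was the one that differed, in the same directions. CGN, at 75.6, 25.2 and 54.4 under DMSO and 27.7, 69.4 and 105 with acute drug, and CLDN7, at 125, 45 and 95.2 and 62.3, 129.7 and 132, were lowest in the same libraries. In DTPs of H1975, GRHL2 was at 0, 0.202 and 0.0991 CPM, OVOL1 at 0, 0.101 and 0.0991 and OVOL2 at 0, 0.0607 and 0.0248, each library being under every DMSO library, with adjusted p = 0.0015, 1.1e-05 and 6.7e-06. These libraries were described after their values were seen, and no test of the difference within a group was run.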
